A study of Mus musculus with 3 samples.

Results

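The nuclear genes examined here encode subunits of succinate dehydrogenase (complex II), the cytochrome bc1 complex (complex III) with its mobile carrier cytochrome c, cytochrome c oxidase (complex IV) and ATP synthase. They were chosen by name: the Sdh genes, the genes whose symbols begin with Uqcr or Atp5, Cyc1, Cycs, Ndufa4 and 6 Cox genes. The choice gave 38 genes out of 22173 with an mRNA row: 4 of complex II, 10 of complex III and cytochrome c, 7 of complex IV and 17 of ATP synthase. All 38 were among the 11821 genes with a mean level of at least 1 CPM (the count scaled to its library's total), which are called the genes compared below. Their counts ran between 214 and 28022, so none depended on the low-count filter.

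RNA was sequenced from cultures of C2C12, a mouse myoblast cell line whose cells fuse into myotubes, after 4 days of differentiation. The rescue library came from Drp1 knockout cells that transiently expressed FLAG-Drp1. The KO library came from Drp1 knockout cells, and the WT library from wild-type C2C12 cells. Drp1 is the GTPase that divides mitochondria, and its gene is Dnm1l. The sources used here give neither the way the knockout was made, nor the number of clones, nor the share of rescue cells that took up FLAG-Drp1. There was 1 library per group, so no difference below has a replicate check and no test was possible. A comparison describes these libraries only. Ratios are log2 ratios after scaling, and their intervals are exact conditional 95% counting intervals. These cover counting error alone and not the variation between cultures or libraries. PCR copies cannot be recognised among these reads, and any such copies would make the intervals too narrow.

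Electrons enter the ubiquinone pool through complex II, among other routes, pass through complex III to cytochrome c, and reach oxygen at complex IV. Complexes III and IV pump protons across the inner mitochondrial membrane, and ATP synthase uses the return flow to make ATP. Skeletal muscle is rich in these complexes. Complex II is encoded wholly in the nucleus, while the other complexes also hold subunits made from mitochondrial DNA, which were not analysed here.

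The libraries had 13925296 gene counts in rescue, 13790417 in KO and 13894114 in WT. Dnm1l had 1481 counts in rescue, 1284 in KO and 1823 in WT, with KO over WT at -0.48 (interval -0.58 to -0.38), so its RNA was present in the library labelled KO. Its rescue over KO was 0.21 (interval 0.10 to 0.32), and rescue over WT was -0.27 (interval -0.37 to -0.17). An RNA level does not check the label, since a knockout by a small insertion or deletion can leave the transcript in place. All 10 myotube markers were detected in each library, with summed levels of 19964 CPM in rescue, 16302 in KO and 15855 in WT. Their median ratio was -0.23 for KO over WT, with 2 of the 10 at least 2-fold lower and none 2-fold higher, and 0.33 for rescue over KO, with 2 at least 2-fold higher and none 2-fold lower. Of all genes with a mean of at least 1 CPM, 3.75% were at least 2-fold lower and 5.16% at least 2-fold higher in KO over WT. For rescue over KO these shares were 0.381% and 1.12%. The markers' medians had the same signs as the members' medians in these comparisons. For rescue over WT the signs differed, with medians of 0.25 for the markers and -0.03 for the members. The summed marker level was higher in KO than in WT, unlike the median ratio. The 7 fibroblast and matrix markers summed to 5019 CPM in rescue, 6047 in KO and 2912 in WT, and Thy1 was at 0 in rescue and WT. Of the 6 such markers at 1 CPM or more, 4 were 2-fold or more above WT in KO and 1 was 2-fold or more below it, against 5.16% and 3.75% of all genes compared. The 6 markers of proliferating myoblasts summed to 371 CPM in rescue, 372 in KO and 481 in WT. Adipocyte markers summed to at most 0.362 CPM and macrophage markers to at most 4.20 CPM, with Adipoq, Cidec, Ptprc and Adgre1 at 0 in all 3 libraries. The part of these marker differences in the results below was not tested, and fewer cells of a type cannot be told apart from less RNA per cell in such bulk samples.

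Many genes of the respiratory chain are known targets of the factors NRF1, GABP (an ETS factor, also called NRF2) and YY1, so the bases before the transcription start are shown for 5 members. Atp5k, Uqcrh, Sdhd and Cox7b had the lowest ratio of KO over WT in their complexes, and Atp5g2 is shown as a member close to WT. The sequences are the 100 bases upstream of the RefSeq start in the mouse build GRCm38.p6, written 5′ to 3′ on the gene's strand. Capitals mark the NRF1 consensus, searched as a pair of overlapping forms of 10 letters, in Atp5k and Atp5g2. In Uqcrh and Sdhd they mark the ETS letters CCGGAAG, which lie there on the opposite strand. Both strands were searched.
Atp5k: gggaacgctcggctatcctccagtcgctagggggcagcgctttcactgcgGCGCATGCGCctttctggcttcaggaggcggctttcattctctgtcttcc
Uqcrh: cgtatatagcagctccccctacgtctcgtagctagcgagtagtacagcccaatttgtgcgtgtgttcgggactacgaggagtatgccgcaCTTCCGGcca
Sdhd: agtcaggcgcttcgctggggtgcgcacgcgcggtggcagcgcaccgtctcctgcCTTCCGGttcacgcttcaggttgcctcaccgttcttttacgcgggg
Cox7b: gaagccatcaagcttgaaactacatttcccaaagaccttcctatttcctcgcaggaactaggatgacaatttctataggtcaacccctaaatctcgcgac
Atp5g2: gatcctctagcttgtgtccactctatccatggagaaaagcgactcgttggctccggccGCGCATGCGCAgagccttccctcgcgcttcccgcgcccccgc

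These windows lie at chr5:108434400-108434499 for Atp5k, chr4:116075071-116075170 for Uqcrh and chr9:50603850-50603949 for Sdhd, all on the minus strand. That of Cox7b lies at chrX:106015600-106015699 on the plus strand, and that of Atp5g2 at chr15:102671048-102671147 on the minus strand. Atp5k and Atp5g2 both held the NRF1 consensus, and their log2 ratios of KO over WT were -0.99 and -0.09. Atp5k also held the ETS letters, 12 bases after the start and so outside the stretch shown. Uqcrh and Sdhd held the ETS letters, at 10 and 46 bases before the start. No searched motif was in the Cox7b window, which says only that these letters are not in it.

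Promoters, taken as 250 bases before to 50 bases after each start, were available for 30 of the 38 members. The ETS letters were in 11 of them (36.7%), against 9.93% of all 27025 genes with a promoter and 20.7% of the 9419 compared genes outside the set. The NRF1 consensus was in 4 (13.3%), namely Atp5g2, Atp5k, Atp5l and Uqcrc1, against 1.5% of all genes and 3.31% of the compared genes outside the set. The YY1 letters AAGATGGC were in 3, namely Atp5j, Atp5j2 and Atp5pb, against 3.19% of all genes and 5.48% of the compared genes outside the set. A match is a description of sequence and does not show binding.

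In KO against WT the members were lower by small amounts, and their median log2 ratio was -0.32 beside -0.00 for all genes compared. KO was below WT in 36 of the 38, against 50.1% of all genes compared and 59.4% of the non-member genes in the members' length range. Genes in that range had a median length of 2001 bases beside 828 for the members, so the range is not a length match. The counting interval lay wholly below 0 for 32 members (84.2%) and included 0 for 6, while it lay below 0 for 30.9% of all genes compared and 37.9% in the length range. Interval width depends on the counts, so shares of intervals also follow expression level. The ratios ran between -0.99 for Atp5k and 0.07 for Uqcrc2. At least 20% lower were 18 members (47.4%), against 21.3% of all genes compared and 27.6% of the 5514 genes in the length range. None was at least 25% higher, against 22.4% of all genes compared and 17.4% in the length range. None was 2-fold lower, against 3.75% and 4.43%, or 2-fold higher, against 5.16% and 4.64%. The summed counts of the members had a log2 ratio of -0.29 (interval -0.30 to -0.28).

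**Figure D1:**
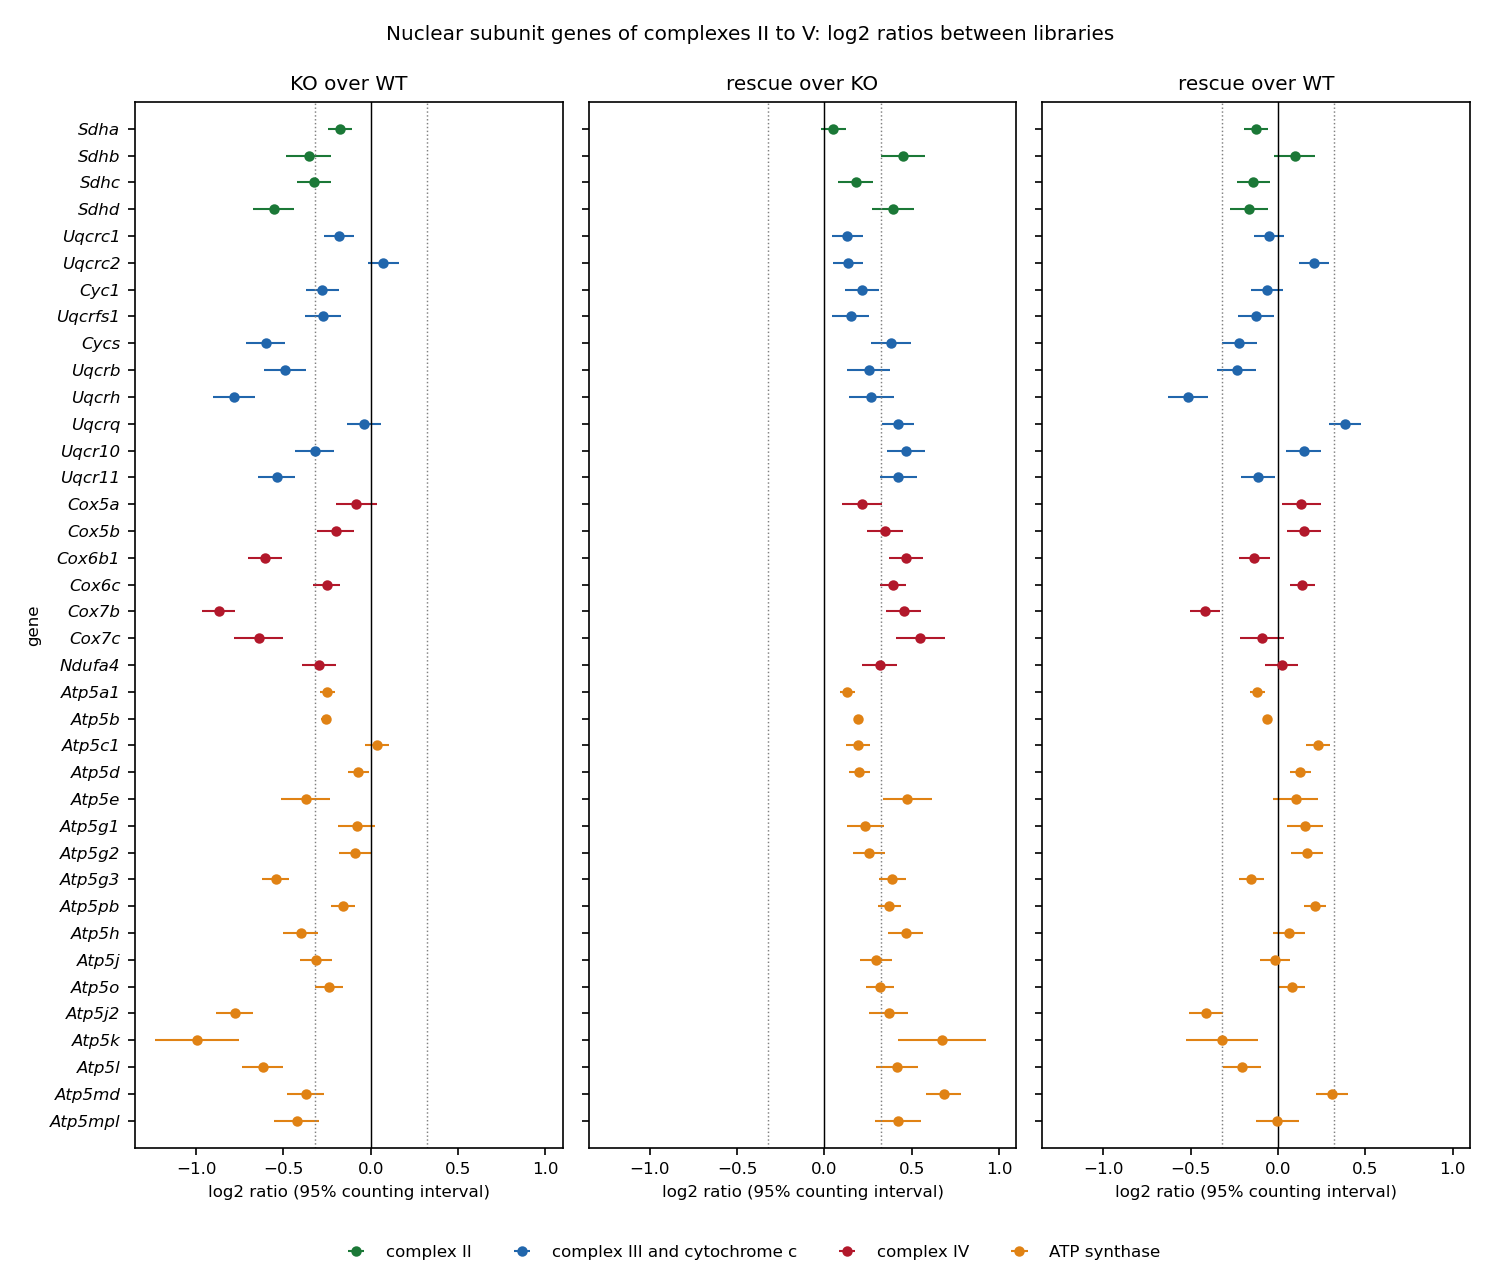
log2 ratios of the 38 genes (x axis) for KO over WT, rescue over KO and rescue over WT, with 95% counting intervals as bars. Dotted lines mark 20% lower and 25% higher. In the left panel 36 genes lie below 0, in the middle panel all 38 lie above 0, and in the right panel 21 lie below 0 and 17 above.

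Transcript length moved with this difference. The members are short, with a median of 828 bases beside 3315 for all genes compared, and short transcripts outside the set were also lower in KO than in WT. For each member, the genes outside the set within 10% of its length were taken for comparison, between 7 genes for Atp5k and 1463 for Cycs. The median of these length-matched medians was -0.19, and on average 32.8% of the length-matched genes were at least 20% lower. After subtraction of the similar-length median, the members had a median of -0.15, and 31 lay below and 7 above their length-matched genes. By this measure 11 members, in place of 18, were at least 20% lower. The share of all genes compared past this cut after subtraction is not given here, so the 11 have no background. The 32.8% is a share of ratios before subtraction. Across the 38 members the log2 ratio and log2 length had a Pearson correlation of 0.48 for KO over WT, -0.67 for rescue over KO and 0.11 for rescue over WT, a description only, since all points share the same libraries. Among the shortest members the matched medians of KO over WT were uneven. They were -0.03 for Uqcr11 (436 bases, 33 genes) and -0.25 for Cox6b1 (471 bases, 60 genes). Cox7c and Uqcr11 were at -0.61 and -0.51 after subtraction of these medians, but at -0.35 and -0.25 with a straight-line fit on length. The part of the length trend in the members' ratios was not tested beyond such subtraction.

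**Figure D2:**
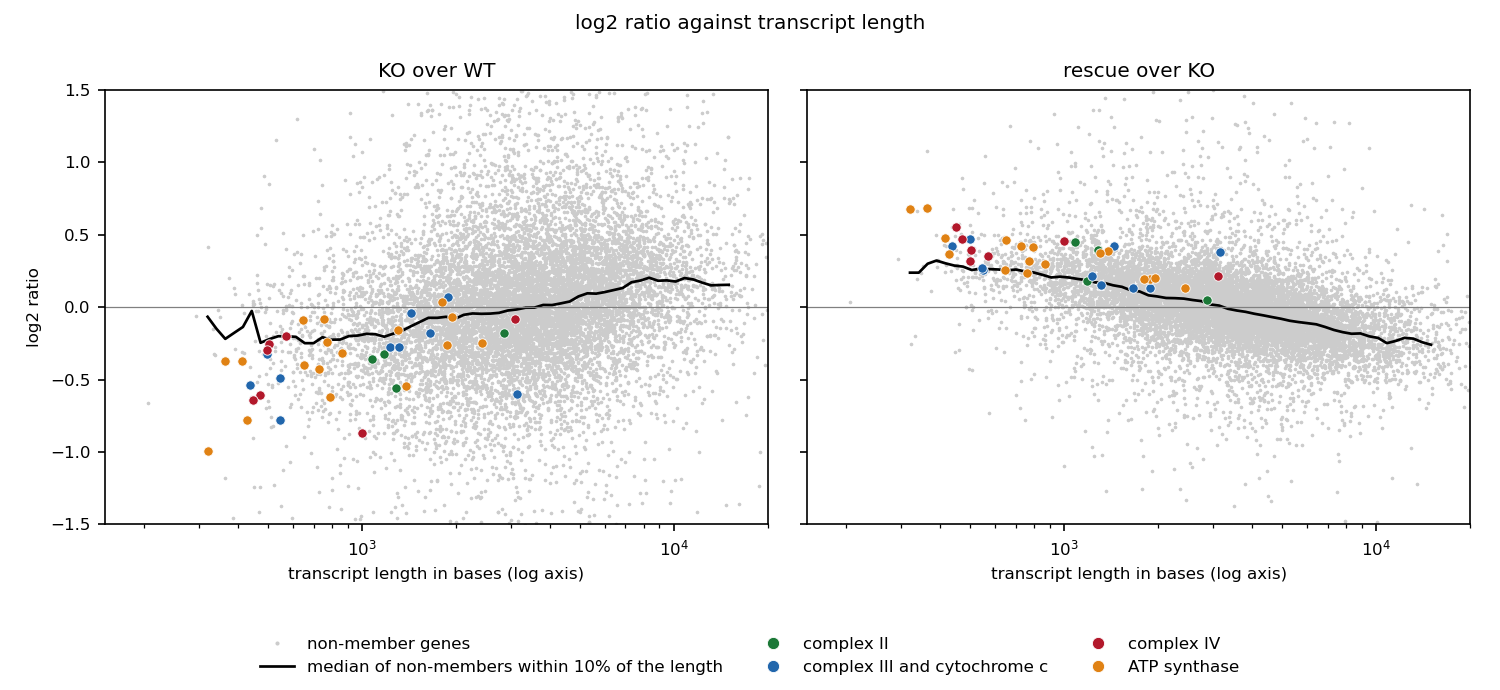
log2 ratio (y axis, shown between -1.5 and 1.5) against transcript length in bases (log axis) for KO over WT and rescue over KO. Grey points are non-member genes, the black line is their median within 10% of each length, and coloured points are the 38 members. Most members lie below the line in KO over WT, 31 of 38, and above it in rescue over KO, 33 of 38.

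Levels per length, in scaled CPM per kilobase of the row used, differed widely among the members. The highest was Atp5b, the catalytic beta subunit of ATP synthase, with 1016 in rescue, 888 in KO and 1062 in WT. Cox6c of complex IV followed with 496 in rescue, 378 in KO and 450 in WT. The 4 complex II genes lay between 56.3 and 117 over the 3 libraries. Cycs and Cox5a stood lowest, at 25.4 to 38.5 and 27.2 to 31.6, but their rows are 3154 and 3100 bases long, and the shortest Cox5a row has 693 bases. With no replicates, the order of neighbouring levels has no spread to be set against, and it depends on the row taken for a gene.

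**Figure D3:**
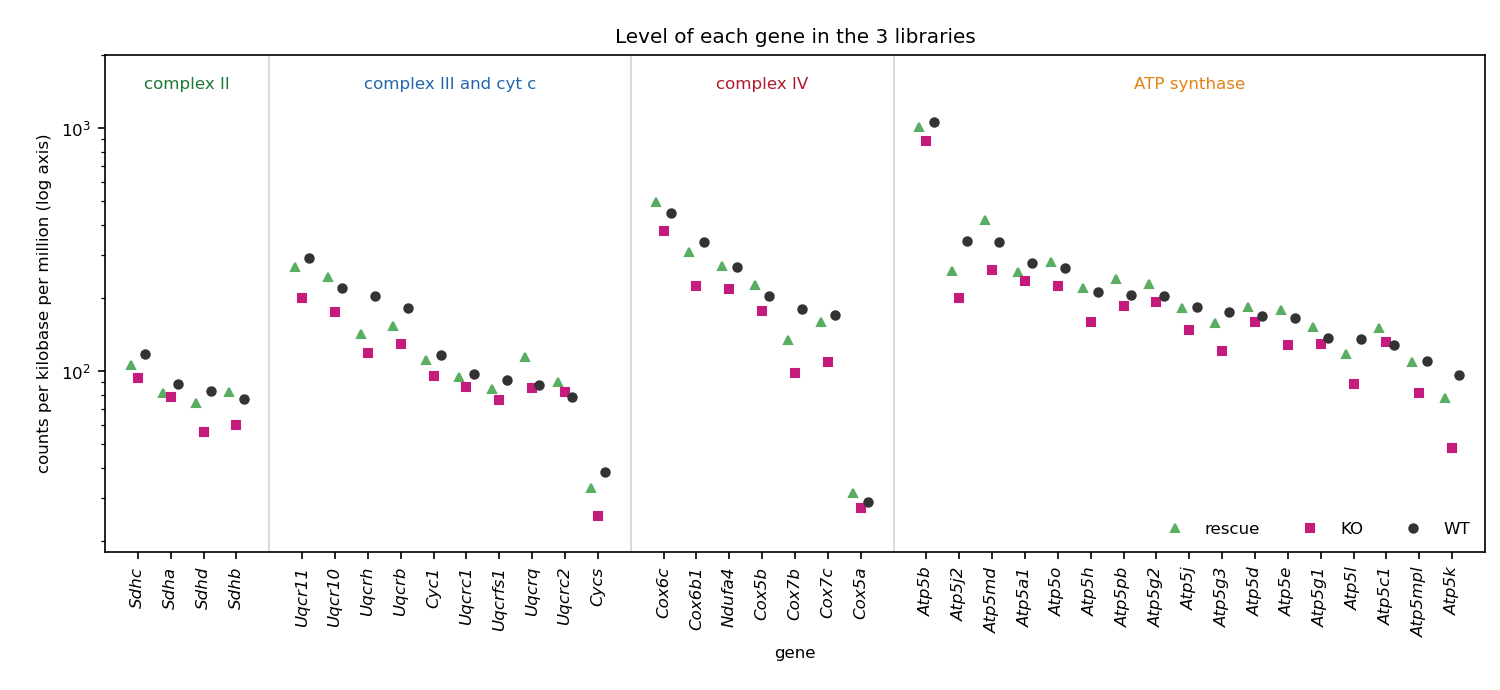
Level of each gene in scaled CPM per kilobase (log axis) in the rescue, KO and WT libraries, from left to right within a gene, grouped by complex and ordered by the WT level. KO lies below both other libraries for most genes, and Atp5b stands highest at 888 to 1062.

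Complex II was lower in KO in all 4 genes, with a median of -0.34 (-0.16 after subtraction of genes of similar length). Sdha, the flavoprotein that oxidises succinate, had 3204 counts in rescue, 3097 in KO and 3564 in WT, and KO over WT was -0.18 (interval -0.25 to -0.11). Sdhb, the iron-sulfur subunit, had 1221 counts in rescue, 894 in KO and 1164 in WT, with KO 1.28-fold below WT. Sdhd, which with Sdhc anchors the enzyme in the membrane and binds ubiquinone, had the lowest ratio of the 4. It had 1307 counts in rescue, 999 in KO and 1496 in WT, with KO over WT at -0.56 (interval -0.67 to -0.44). Sdhc, the other anchor, had 1729 counts in rescue, 1528 in KO and 1945 in WT, with KO over WT at -0.32 (interval -0.42 to -0.23).

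In rescue against KO the complex II genes differed among themselves. Sdhb had a ratio of 0.45 (interval 0.33 to 0.58), while Sdha had a ratio of 0.05 (interval -0.02 to 0.12), the lowest of the 38 members. Sdhc and Sdhd had ratios of 0.18 and 0.39. Relative to WT, rescue was at 0.10 for Sdhb and between -0.17 and -0.13 for the other 3.

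In complex III the small subunits were, summed over genes, further below WT in KO than the core proteins, although the small subunit Uqcrq, at -0.04, was nearer WT than the core protein Uqcrc1, at -0.18. For these sums KO over WT was -0.40 for the small subunits (interval -0.45 to -0.36) and -0.06 for the core proteins (interval -0.12 to 0.01). The small ones have a median length of 546 bases beside 1769 for the core proteins, and after subtraction of similar-length genes the medians were -0.28 and 0.01. Uqcrh, the acidic hinge protein near cytochrome c1, had 1074 counts in rescue, 893 in KO and 1564 in WT. KO was 1.72-fold below WT (log2 -0.78, interval -0.90 to -0.66), and rescue was still 1.43-fold below WT (log2 -0.51, interval -0.63 to -0.40). This was the lowest ratio of rescue over WT among the members. Uqcr11 had 1614 counts in rescue, 1205 in KO and 1783 in WT, and Uqcrb, a small matrix-side subunit, had 1162 in rescue, 977 in KO and 1396 in WT. Their KO over WT ratios were -0.54 (interval -0.65 to -0.43) and -0.49 (interval -0.61 to -0.37).

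Other subunits of complex III were nearer WT. Uqcrq had 2262 counts in rescue, 1691 in KO and 1768 in WT, and rescue over WT was 0.38 (interval 0.29 to 0.47). It was the only member at least 25% above WT in rescue. Uqcr10 had 1665 counts in rescue, 1205 in KO and 1533 in WT, with KO over WT at -0.32. The core proteins Uqcrc1 and Uqcrc2, relatives of mitochondrial processing peptidases, had 2151 and 2346 counts in rescue, 1967 and 2141 in KO and 2271 and 2074 in WT. Uqcrc2 was the member with the highest ratio of KO over WT, 0.07 (interval -0.02 to 0.16).

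The redox subunits of complex III had nearly the same ratio as each other. Cyc1, the haem protein cytochrome c1, had 1886 counts in rescue, 1629 in KO and 2009 in WT, and Uqcrfs1, the Rieske iron-sulfur protein, had 1524 in rescue, 1376 in KO and 1695 in WT. KO over WT was -0.28 for both, or -0.09 for both after subtraction of similar-length genes.

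Cycs, the cytochrome c that carries electrons to complex IV and triggers apoptosis when released, differed more. It had 1437 counts in rescue, 1105 in KO and 1707 in WT, with KO 1.52-fold below WT (log2 -0.60, interval -0.71 to -0.49). Its transcript is the longest of the set, and the 1463 genes of similar length had a median of -0.02, so subtraction left -0.59. Rescue over KO was 0.38 (interval 0.27 to 0.50), and rescue over WT was -0.22 (interval -0.32 to -0.12).

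The 7 complex IV genes had a median of -0.30 in KO against WT, with 3 genes at least 20% lower and 4 nearer WT. The 3 of 7 (42.9%) compare with 33.1% of genes of similar length, a share near the background. Cox7b, a small membrane subunit, had 1854 counts in rescue, 1356 in KO and 2523 in WT. KO was 1.83-fold below WT (log2 -0.87, interval -0.97 to -0.77), and rescue stayed 1.33-fold below WT (log2 -0.42, interval -0.50 to -0.33). Its row has 1001 bases, and the 326 genes of similar length had a median of -0.19.

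Cox7c and Cox6b1 were the next lowest in complex IV. Cox7c had 988 counts in rescue, 676 in KO and 1073 in WT, with KO over WT at -0.64 (interval -0.78 to -0.50). Cox6b1, which faces the intermembrane space where cytochrome c docks, had 2006 counts in rescue, 1452 in KO and 2247 in WT, with KO over WT at -0.60 (interval -0.70 to -0.51). For both, rescue over WT lay closer to 0, at -0.09 (interval -0.22 to 0.04) and -0.14 (interval -0.22 to -0.05).

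The other complex IV genes were less than 20% below WT in KO. Ndufa4, named as a complex I subunit but now placed in complex IV, had 1858 counts in rescue, 1495 in KO and 1867 in WT. Cox6c had 3436 counts in rescue, 2621 in KO and 3179 in WT, and Cox5b had 1767 in rescue, 1390 in KO and 1626 in WT. Cox5a had 1348 counts in rescue, 1163 in KO and 1253 in WT, with KO over WT at -0.08 (interval -0.20 to 0.03). After subtraction of similar-length genes Cox5b and Cox6c were at 0.01 and -0.01 for KO over WT. Against genes matched on length and also on level within 4-fold, Cox5b stayed at 0.01 but Cox6c was at -0.23. Only Cox5b, then, did not stand apart from short transcripts by both measures. In rescue against KO all 7 were higher, between 0.22 for Cox5a and 0.55 for Cox7c. For the rows used, all 7 stayed above 0 after the subtraction, between 0.06 and 0.27. For Cox5a this depends on the row, since it was matched at 3100 bases and its row of 693 bases had the same total count. The similar-length medians of Atp5h (652 bases) and Atp5mpl (729 bases) were 0.26 and 0.25, above the 0.22 of Cox5a.

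Other complex IV subunits, several of which come as muscle and ubiquitous isoforms, went both ways in KO against WT. Of 11 listed, 8 passed the filter, with a median length of 602 bases. Of these, 5 were at least 20% lower and 1 at least 25% higher. The shares were 21.3% and 22.4% of all genes compared, and 27.6% and 17.4% of non-member genes in the members' length range. The median of these 8 genes was -0.50, or -0.26 after subtraction of similar-length genes. Among the muscle forms, Cox7a1 had 49 counts in rescue, 8 in KO and 48 in WT, with KO over WT at -2.49 (interval -3.85 to -1.47). Cox8b had 253 counts in rescue, 120 in KO and 277 in WT. In both of these KO stood apart from the other libraries. Cox6a2, the muscle form of Cox6a1, had 1264 counts in rescue, 1053 in KO and 305 in WT, so it was the high one in both Drp1 knockout libraries. Cox4i1, the main core nuclear subunit, had 4346 counts in rescue, 3553 in KO and 5000 in WT.

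ATP synthase had a median of -0.31 over 17 genes in KO against WT, and its membrane subunits had the lowest median of its parts. The 5 small membrane subunits had a median of -0.62 and were all at least 20% lower in KO, against 35.8% of genes of similar length and 21.3% of all genes compared. Of the 5 genes of the F1 head and central stalk, 1 was (20%, against 26.2% of genes of similar length), as were 1 of the 3 c-ring genes (33.3% against 36.9%) and 1 of the 4 peripheral stalk genes (25% against 38.1%). These 3 shares were at or below the background. Summed over genes, KO over WT was -0.58 for the membrane subunits (interval -0.64 to -0.53) and -0.22 for the F1 head and central stalk (interval -0.24 to -0.20). These membrane genes are also short, with a median of 428 bases beside 1879 for the F1 genes. After subtraction of similar-length genes their medians were -0.40 and -0.19. Both the lengths and these medians depend on the rows used. Atp5l was matched at 792 bases, Atp5c1 at 1801 and Atp5d at 1947. Their shortest rows have 513, 1051 and 892 bases, with nearly the same total counts.

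**Figure D4:**
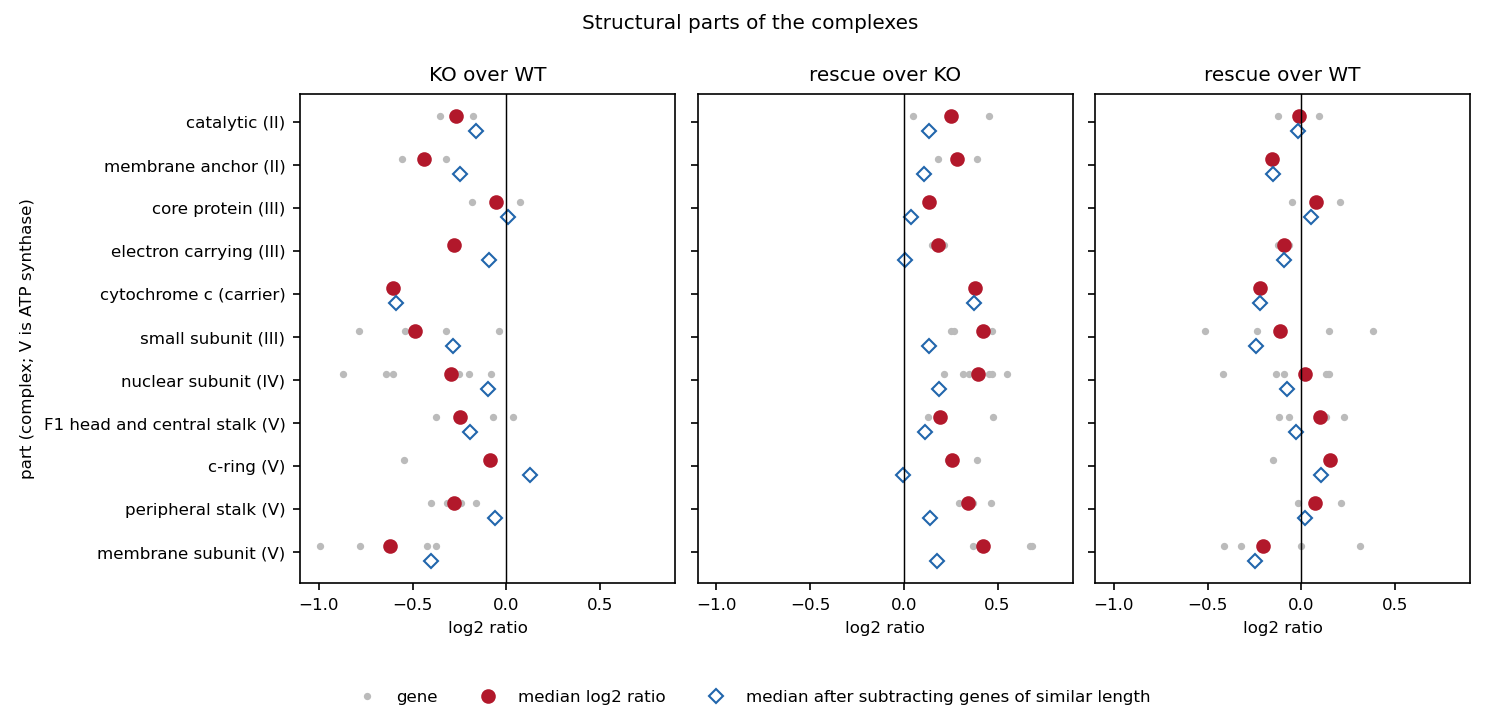
log2 ratios (x axis) by structural part of each complex for the 3 comparisons. Grey points are genes, red circles are medians, and open blue diamonds are medians after the similar-length median was subtracted from each gene. The membrane subunits of ATP synthase have the lowest median in KO over WT, -0.62, and cytochrome c keeps nearly its full ratio after the subtraction.

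Among the membrane subunits, which help ATP synthase form the dimers that bend the cristae, Atp5k (subunit e) was the lowest of all members. It had 341 counts in rescue, 214 in KO and 434 in WT, the fewest of the set. KO was 1.99-fold below WT (log2 -0.99, interval -1.24 to -0.76), and the rescue level exceeded that of KO by 0.67 on the log2 scale (interval 0.42 to 0.93). With scaling by the library total or by DESeq2 size factors, Atp5k was just past 2-fold lower in KO. Only 7 genes outside the set had a similar length, so its value after subtraction, -0.93, rests on few genes.

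Atp5j2 (subunit f) and Atp5l (subunit g) followed. Atp5j2 had 1517 counts in rescue, 1178 in KO and 2059 in WT, with KO over WT at -0.78 (interval -0.88 to -0.68) and rescue over WT at -0.41 (interval -0.51 to -0.32). Atp5l had 1284 counts in rescue, 964 in KO and 1508 in WT, with KO 1.54-fold below WT. Atp5k, Atp5j2 and Atp5l all remained below WT in rescue, with intervals wholly below 0.

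The last membrane subunits were not below WT in rescue beyond counting error. Atp5md, also called DAPIT, had 2103 counts in rescue, 1312 in KO and 1729 in WT. Rescue over KO was 0.68 (interval 0.58 to 0.78), the highest such ratio in the set, and rescue over WT was 0.31 (interval 0.22 to 0.40). Atp5mpl, a small proteolipid, had 1098 counts in rescue, 821 in KO and 1122 in WT, and rescue over WT was -0.00 (interval -0.12 to 0.12).

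In the catalytic head, Atp5a1 and Atp5b, the alpha and beta subunits that form the nucleotide sites, differed almost equally. Atp5a1 had 8588 counts in rescue, 7855 in KO and 9501 in WT, and Atp5b had 26293 in rescue, 23013 in KO and 28022 in WT. Their KO over WT ratios were -0.25 (interval -0.29 to -0.21) and -0.26 (interval -0.28 to -0.23), both narrow because the counts were high. Atp5c1, the gamma subunit that turns inside the head, had 3721 counts in rescue, 3262 in KO and 3241 in WT, with KO over WT at 0.03 (interval -0.04 to 0.11).

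The small subunits of the central stalk were not alike. Atp5d (delta) had 4930 counts in rescue, 4301 in KO and 4596 in WT, with KO over WT at -0.07. Atp5e (epsilon), a transcript of 414 bases, had 1014 counts in rescue, 731 in KO and 963 in WT, with KO over WT at -0.37 (interval -0.51 to -0.23). The 20 genes of similar length to Atp5e had a median of -0.14.

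The c-ring of the proton rotor is made from a single mature protein encoded by several genes, of which Atp5g1, Atp5g2 and Atp5g3 were measured. Atp5g3, the most abundant in counts, had 3006 in rescue, 2298 in KO and 3408 in WT, with KO 1.46-fold below WT (log2 -0.54, interval -0.62 to -0.47). Atp5g1 had 1591 counts in rescue, 1355 in KO and 1459 in WT, and Atp5g2 had 2043 in rescue, 1715 in KO and 1856 in WT. Both were 1.06-fold below WT in KO, with intervals that included 0, so of the 3 genes only Atp5g3 was at least 20% lower. The intervals of Atp5g3 and of the other two did not overlap, which compares counting error in 2 libraries only. Summed over the 3 genes, KO over WT was -0.30 (interval -0.35 to -0.25) and rescue over WT 0.01 (interval -0.04 to 0.06). After subtraction of similar-length genes Atp5g3 was at -0.39, but Atp5g1 and Atp5g2 were at 0.13 and 0.16, above short transcripts outside the set. Their reads may also be shared where the sequences are alike, and the sources used here do not say how such reads were counted.

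The peripheral stalk, which holds the head still against the rotor, was between -0.40 and -0.16 in KO against WT. Atp5h (subunit d) had 1980 counts in rescue, 1437 in KO and 1933 in WT, with KO 1.32-fold below WT. Atp5j (coupling factor 6) had 2156 counts in rescue, 1761 in KO and 2228 in WT. Atp5o (the oligomycin sensitivity protein) had 2985 counts in rescue, 2397 in KO and 2882 in WT, and Atp5pb (subunit b) had 4287 in rescue, 3321 in KO and 3777 in WT. After subtraction of similar-length genes the median of these 4 was -0.06, close to that of short transcripts outside the set. In rescue Atp5pb lay above WT, at 0.21 (interval 0.15 to 0.27).

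In rescue against KO every member was higher, as were 49.5% of all genes compared and 70.1% of the non-member genes in the length range, with a median log2 ratio of 0.36 beside -0.00 for all genes compared. The counting interval lay above 0 for 37 of the 38, and for Sdha it included 0, while it lay above 0 for 18.3% of all genes compared and 30.1% in the length range. At least 25% higher were 20 members (52.6%), against 8.73% of all genes compared and 13.6% of non-member genes in the members' length range. None was at least 20% lower, against 8.49% and 4.48%. None was 2-fold higher, against 1.12% and 1.43%, or 2-fold lower, against 0.381% and 0.399%. By complex, the medians were 0.29 for complex II, 0.26 for complex III and cytochrome c, 0.39 for complex IV and 0.37 for ATP synthase.

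Short transcripts as a whole were also higher in rescue than in KO. The median of the length-matched medians was 0.23, and on average 26.5% of the length-matched genes were at least 25% higher. The members' median after subtraction was 0.13, with 33 above and 5 below their length-matched genes, and 3 members were at least 25% higher by this measure. The 3 were Atp5k at 0.44, Atp5md at 0.38 and Cycs at 0.37, and the first 2 rest on 7 and 12 genes of similar length. For this count too, no share of all genes compared after subtraction is given here. Complex III was the group with the least left, a median of 0.04. Rescue over KO and KO over WT share the KO library, so the values of a gene in the 2 comparisons are not independent.

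Against WT, the rescue library lay close to 0 for most members, with a median of -0.03 beside 0.00 for all genes compared. Rescue was lower in 21 and higher in 17, and the counting interval lay below 0 for 16, above 0 for 13 and included 0 for 9. Over all genes compared it lay below 0 for 27.3% and above 0 for 28.2%. At least 20% lower were 3 members, Uqcrh, Cox7b and Atp5j2, against 17.6% of all genes compared and 17.3% of non-member genes in the length range. At least 25% higher was 1, Uqcrq, against 19.4% and 20.0%. None was 2-fold lower, against 2.94% and 2.88%, or 2-fold higher, against 4.49% and 4.73%. By complex the medians were -0.13 for complex II, -0.09 for complex III and cytochrome c, 0.02 for complex IV and 0.06 for ATP synthase. The median of the length-matched medians was 0.03, and after the subtraction the members' median was -0.07. Rescue over WT shares a library with each of the other comparisons.

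Assembly factors, the proteins that build these complexes without staying in them, did not show the same pattern in every list. In what follows, lower means at least 20% lower and higher at least 25% higher in KO than in WT, which 21.3% and 22.4% of all genes compared were, and 27.6% and 17.4% of those in the members' length range. Of 4 complex II factors none was either, and the median of -0.18 became 0.04 after subtraction of similar-length genes. By that measure 2 of the 4 lay below and 2 above their length-matched genes, so no common direction was left. Of 6 measured complex III factors 1 was lower and 2 were higher, with a median of 0.19 (0.22 after the subtraction). The lower one was Uqcc2, with 1106 counts in rescue, 788 in KO and 1272 in WT, and the higher ones were Uqcc3 (0.54) and Lyrm7 (0.76, interval -0.09 to 1.68). Of 27 complex IV factors 9 were lower and 2 higher, a share of lower ones near that of the length range, with a median of -0.15 (-0.06 after the subtraction). Cox20, which helps the maturation of the mitochondrially encoded subunit COX2, was the only one 2-fold lower, with 202 counts in rescue, 129 in KO and 283 in WT (log2 -1.11, interval -1.42 to -0.80). Of 6 ATP synthase factors 3 were lower and 2 higher, with a median of -0.23 (-0.09 after the subtraction). In rescue against KO none of these factors was at least 20% lower, and 0 of 4, 2 of 6, 8 of 27 and 2 of 6, in the order of the lists, were at least 25% higher, against 8.73% of all genes compared and 13.6% in the length range.

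Counts of some members may hold reads of other loci. In the RefSeq annotation of GRCm38.p6, 13 of the 38 gene spans overlap another annotated gene, among them Uqcrq with Gdf9, Atp5md with Taf5, Uqcrc2 with Pdzd9, Atp5d with Cbarp, Atp5a1 with Haus1 and Atp5j with Gabpa. Of the 13, Uqcrq, Uqcrc2, Uqcr10, Atp5c1, Atp5d and Atp5md lay above WT in rescue. Sdhc, Uqcrh, Cox7c, Atp5a1, Atp5b, Atp5j and Atp5l lay below it. Among all 38 members 17 lay above and 21 below. The part of the overlap in their values was not tested, and no source used here gives the strand setting of the counting. Pseudogene copies named after members were at 4 counts or fewer, with the exception of Cox5b-ps, which had 401 counts in rescue, 361 in KO and 420 in WT beside 1767 in rescue, 1390 in KO and 1626 in WT for Cox5b.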

How the data were processed

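RNA-seq counts of 3 C2C12 libraries, 1 per group, were analysed. Tools named in the submitters' processing notes include cutadapt (version 1.9.1), HISAT2 (version 2.2.1) and featureCounts (version 2.0.0), and the build named there is GRCm39, also called mm39. Settings for strand and for reads that map to several places are not given. Each deposited table held a raw count, an RPKM and a TPM for 139023 transcript rows. The RPKM and TPM values of the authors could be recomputed from the deposited counts and lengths to within 4.98e-06, so only the counts were used.

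Rows of a gene share reads, so each gene was represented by its mRNA row with the highest total count. Scaling used edgeR 4.0.16 TMM factors in R 4.3.3 (0.989 for rescue, 1.00 for KO and 1.01 for WT), computed on the highest row of each of 46316 symbols. The log2 ratio was that of scaled counts after 0.5 was added to each raw count. Genes with a mean of 1 CPM or more were kept. Thresholds of 20% lower, 25% higher (the same fold) and 2-fold describe sizes only. For each member, genes outside the set within 10% of its length gave a length-matched median. The calculations were tested on simulated counts. Alternatives were scaling by library total or DESeq2 1.42.0 size factors, other rows for a gene, other length corrections, 5 added counts and no filter. Promoters came from a RefSeq table of GRCm38.p6, and 30 of 38 members matched by symbol.

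The members, lists and thresholds were chosen with earlier results of these data known. Any member could be named. Values in all 3 libraries were to be given for complex II, the 3 lowest and 3 highest of each other complex in KO over WT, the c-ring, the catalytic head and members at least 1.5-fold different. In the lists, Uqcc4, Uqcc5 and Uqcc6 are not analysed here.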

Additional observations from a re-analysis of the deposited data

How the results depend on the processing

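The medians of all members and of each complex stayed below 0 for KO over WT and above 0 for rescue over KO under every alternative run. Length correction made them smaller, and the cause was not tested. The values follow in the order length-matched genes, straight-line fit on length, and genes matched on length and level within 4-fold, the last of which was added after the data were seen. In KO against WT the median of all members was -0.15, -0.16 and -0.14, that of complex II -0.16, -0.19 and -0.12, that of complex III and cytochrome c -0.12, -0.15 and -0.10, and that of ATP synthase -0.17, -0.13 and -0.14. Complex IV was at -0.097, -0.093 and -0.23, against -0.30 with no correction. The last of the 3 lay within the counting interval of the middle gene of the complex, Ndufa4 (-0.39 to -0.20). In rescue against KO all members were at 0.13, 0.094 and 0.12, complex II at 0.12, 0.13 and 0.10, complex III and cytochrome c at 0.043, 0.043 and 0.022, complex IV at 0.19, 0.15 and 0.19, and ATP synthase at 0.12, 0.11 and 0.10. In rescue against WT complex IV was at -0.078, -0.023 and -0.093, against 0.02 with no correction and -0.01 with the library total, and ATP synthase was between -0.03 and 0.06 over all alternatives. Members at least 20% lower in KO than in WT numbered 11, 10 and 11, against 18, and members at least 25% higher in rescue than in KO numbered 3, 1 and 3, against 20. The counts after length correction have no share of all genes compared beside them, so they are not set against a background. With the library total or DESeq2 size factors, 1 member, Atp5k, was 2-fold lower in KO. Other rows of a gene, 5 added counts and no filter moved none of these medians beyond counting error. For a median, counting error means here the interval of its middle gene, or the mean limits of its middle pair of genes. The choice of the curated row was also added after the data were seen. No paired analysis was possible because there was 1 library per group, and for the same reason no library could be left out. Among the members depth limits Atp5k most, with 214 counts in KO, and outside them Cox7a1, Lyrm7 and Ppargc1a had as few as 8 counts in KO, 19 in WT and 33 in rescue.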

Other observations

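Regulators known to act on nuclear respiratory genes were themselves at 0.13 in the median in KO against WT, or 0.09 after subtraction of genes of similar length, which had a median of 0.10. Of 10 measured genes, from 11 listed, 2 were at least 20% lower and 1 at least 25% higher, against 21.3% and 22.4% of all genes compared, so these counts were not above the background. Ppargc1a, which encodes the coactivator PGC-1alpha, had 33 counts in rescue, 45 in KO and 80 in WT, with rescue over WT at -1.24 (interval -1.88 to -0.65) and rescue over KO at -0.44 (interval -1.14 to 0.24). Ppargc1b, a related coactivator, had 406 counts in rescue, 373 in KO and 488 in WT. Yy1, the higher one, had 1645 counts in rescue, 1907 in KO and 1525 in WT. Nrf1 had 467 counts in rescue, 417 in KO and 455 in WT, and Gabpa, the DNA-binding subunit of GABP, had 1125 in rescue, 1247 in KO and 1294 in WT, both less than 20% lower and less than 25% higher in all 3 comparisons. Tfam, which packages and transcribes mitochondrial DNA, had 896 counts in rescue, 758 in KO and 712 in WT, with rescue over WT at 0.36 (interval 0.22 to 0.50).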
